A study of Mus musculus with 2 samples.

Results

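The Hedgehog pathway genes examined were the ligand Shh, the receptor Ptch1, the decoy receptor Hhip, the co-receptors Gas1 and Boc, the signal transducer Smo, the Gli inhibitor Sufu and the transcription factors Gli1, Gli2 and Gli3. They were taken by symbol from the 32285 genes of the count tables, which gave 10 genes, of which 9 had at least 1 UMI in the cells. UMIs are random barcodes on each captured transcript, used so that amplified copies are not counted again. Of the 10 genes, 6 had a mean level of at least 10 CPM, that is UMIs of the gene per 1000000 UMIs of the cells, the minimum set for counting differences: Ptch1, Smo, Sufu, Gli2, Gli3 and Gas1.

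The cells came from mouse gastruloids, rounded embryonic stem cell cultures in which axial patterning begins. Each was begun from about 300 cells of the R1 line in serum-free N2B27 medium, either WT or Double Mutant Sp5/8. The second label names the transcription factor genes Sp5 and Sp8 as mutant. Its library is written below as labelled double knockout, a name used here only, since the label itself says mutant and not knockout. Both genotypes received 3 µM CHIR, which switches on Wnt signalling by blocking the kinase GSK3, at day 2 for 12 hours, and the aggregates of each genotype were pooled and made into single cells at day 2.5. There was 1 library per genotype, and no sample without CHIR was analysed here. No difference between genotypes has a replicate check or a test, and all intervals are 95% intervals for counting error only. The number of clones behind the mutant line is not given in the sources used here.

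In Hedgehog signalling the ligand binds Ptch1, which otherwise holds Smo inactive. Freed Smo moves into the primary cilium and Gli proteins released from Sufu change from repressors to activators. Ptch1, Gli1 and Hhip are themselves target genes, so their transcripts are widely used as readouts of the pathway, while Gas1 and Boc help cells to receive ligand. In the embryo, Shh from the node and notochord patterns the neural tube and the left-right axis, and Ihh is made by the visceral endoderm.

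The library labelled wild type gave 8707 cells and the library labelled double knockout 10587, with medians of 10571 and 8637 UMIs and 3275 and 2884 genes per cell. The labels state 9238 and 11190 cells with medians of 5333 and 5398 genes, whereas 8772 and 10613 barcodes reached 2500 UMIs. The libraries shared 27 cell barcodes, against 13.6 if drawn at random. Pou5f1, a marker of pluripotent cells, was at 656.2 and 679 CPM. Sp5 and Sp8 were both higher in the library labelled double knockout, by log2 ratios of 2.13 and 0.95. The genotype label, Double Mutant Sp5/8, does not itself say whether transcripts of the 2 genes are lost. Every direction therefore compares the labelled libraries and cannot be read as an effect of losing either gene. The 14 fibroblast markers summed to 17.1 and 16.6 CPM, with Col3a1 and Lum at 0 in both libraries. The 12 extraembryonic endoderm markers summed to 16.0 and 15.5 CPM. Other lists differed more between the libraries: definitive endoderm markers summed to 464 and 782 CPM, primitive streak markers to 304 and 498, node and notochord markers to 8.59 and 15.7, and neural markers to 201 and 116. The part of these lists in the library differences below was not tested. In the definitive endoderm sum Foxa2 gave only 2.28 and 6.81 CPM, and Sox17 only 0.844 and 0.676 CPM. That sum thus rests mostly on other genes of its list and is no measure of endoderm cells.

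Promoter sequences are shown for the 3 genes past the log2 size of 0.25 between the libraries, because Sp factors are known to bind GC boxes. RefSeq (GRCm38.p6) gave a promoter, from 250 bases before to 50 after the start, for 7 of the 10 genes. The capitals mark the GC box GGGCGG or its reverse complement CCGCCC. The sequences run 5′ to 3′ on the strand of the gene.
Gas1, chr13:60177486-60177785, minus strand: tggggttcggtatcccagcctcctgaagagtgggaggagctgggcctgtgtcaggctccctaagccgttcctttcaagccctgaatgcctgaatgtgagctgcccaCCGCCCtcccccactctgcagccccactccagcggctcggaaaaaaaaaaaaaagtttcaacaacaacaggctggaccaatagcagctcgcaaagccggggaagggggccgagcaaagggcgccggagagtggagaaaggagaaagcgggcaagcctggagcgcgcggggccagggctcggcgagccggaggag
Ptch1, chr13:63565686-63565985, minus strand: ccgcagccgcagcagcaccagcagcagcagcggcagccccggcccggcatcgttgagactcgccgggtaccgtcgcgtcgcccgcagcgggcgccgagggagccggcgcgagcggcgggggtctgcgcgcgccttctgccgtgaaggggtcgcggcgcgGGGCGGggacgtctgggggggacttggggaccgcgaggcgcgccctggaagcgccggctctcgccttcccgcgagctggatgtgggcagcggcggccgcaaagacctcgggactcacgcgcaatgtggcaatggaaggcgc
Gli2, chr1:119053570-119053869, minus strand: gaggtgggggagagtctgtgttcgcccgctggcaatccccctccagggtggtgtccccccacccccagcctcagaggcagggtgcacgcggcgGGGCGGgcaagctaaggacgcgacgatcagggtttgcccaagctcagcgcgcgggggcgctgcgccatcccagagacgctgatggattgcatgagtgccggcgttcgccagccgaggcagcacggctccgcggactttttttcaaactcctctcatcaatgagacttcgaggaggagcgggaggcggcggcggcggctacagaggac
Each of these windows held 1 GC box, beginning 144 bases before the start in Gas1, 91 in Ptch1 and 157 in Gli2. Of the 7 promoters 6 held at least 1, Smo being the exception, against 35.7% of all 32851 promoters of the same length. The windows were rich in G and C, at 62.3% in Gas1, 76.3% in Ptch1 and 67.3% in Gli2, against a median of 52.7% over all promoters. The Gli core GACCACCCA was searched on both strands as well and was in none of the 7 windows, against 0.253% of all promoters. These matches are descriptions of the windows and not binding sites, and the RefSeq start can lie inside or outside the GENCODE gene given with each member.

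No UMI of Shh (ENSMUSG00000002633; chromosome 5, 28456815 to 28467256 in GENCODE M21 on GRCm38) was counted in the cells of either library or in the near-empty barcodes of 10 to 100 UMIs. A count of 0 allows up to 3 UMIs, a level of 0.0309 CPM in wild type-labelled and 0.0307 CPM in double knockout-labelled cells. Noto, a node and notochord marker, was also at 0 in both libraries, while Foxa2, which marks floor plate, node and endoderm cells, had 222 and 665 UMIs. Shh was thus not detected in these files. Whether the 0 reflects the cells or the making of the count tables could not be settled, and the bound holds only if Shh was counted like other genes.

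The other ligands were rare. Ihh, the ligand of visceral endoderm, had 36 UMIs in 29 cells and 44 UMIs in 32 cells. Cells with an Ihh UMI carried the extraembryonic endoderm markers at a summed 489 and 1023 CPM, against 14.2 and 12.1 CPM in the other cells. Only 5 of the 29 and 8 of the 32 such cells held at least 5 UMIs of that list. The summed levels may thus rest on few cells and do not describe most cells with an Ihh UMI. The 18 and 16 cells with at least 5 UMIs of that list held 12 of the 36 and 19 of the 44 Ihh UMIs, a split chosen after the values were seen. In these same cells Gas1 had 11 and 0 UMIs, Smo 6 and 3, Sufu 3 and 1, Gli3 1 and 1 and Ptch1 0 and 2. Gli1, Gli2, Boc and Hhip had 0 in both. The cells held only 213921 and 162713 UMIs of all genes, too few to read an absence from these counts. Dhh had 46 and 41 UMIs in 44 and 41 cells, which held the endoderm markers at 7.36 and 74.3 CPM against 16.1 and 15.2 CPM in the others. The cells with at least 5 UMIs of that list held 0 and 1 of the Dhh UMIs. The second value may thus rest on very few cells.

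Gas1 (ENSMUSG00000052957; chromosome 13, 60174405 to 60177365, minus strand), a membrane-anchored co-receptor for the ligand, had 2054 UMIs or 21.1 CPM (20.2 to 22.1) in the library labelled wild type. The double knockout-labelled cells held 3055 UMIs, a level of 31.3 CPM (30.2 to 32.4). The intervals were apart, and Gas1 was 1.48-fold higher in the latter, with a log2 ratio of 0.57 (0.48 to 0.65). No cell type that lacks these genes was fixed, so near-empty barcodes, which hold free RNA, serve as background. They gave 13.9 and 20.1 CPM on 55 and 51 UMIs, below the level in cells in both libraries and also higher in the library labelled double knockout. No interval was set on these levels, and the part of free RNA in the library difference of Gas1 was not tested. An annotated gene on the opposite strand, Gm48488, had 5 and 6 UMIs.

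Ptch1 (ENSMUSG00000021466; chromosome 13, 63508328 to 63573598, minus strand), the receptor and a target gene, was at 18.5 CPM (17.7 to 19.4) in the library labelled wild type. It was at 14.9 CPM (14.2 to 15.7) in the library labelled double knockout, a log2 ratio of -0.31 (-0.41 to -0.21). Gli2 (ENSMUSG00000048402; chromosome 1, 118834132 to 119053619, minus strand), the main activator among the Gli proteins, was at 16.5 CPM (15.7 to 17.3) and 13.1 CPM (12.4 to 13.9), a log2 ratio of -0.33 (-0.44 to -0.22). For both genes the library labelled double knockout had the lower level, with intervals apart. Near-empty barcodes held Ptch1 at 11.1 and 9.05 CPM on 44 and 23 UMIs, and Gli2 at 13.4 and 6.69 CPM on 53 and 17. These levels were below the cells but also lower in that library, and no interval was set on them. In the library labelled wild type Gli2 is not clearly above free RNA. The part of free RNA in the library differences of both genes was not tested.

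Smo (ENSMUSG00000001761; chromosome 6, 29735503 to 29761365, plus strand) was at 66.1 CPM (64.5 to 67.8) and 61.0 CPM (59.4 to 62.6), a log2 ratio of -0.12 (-0.17 to -0.07) that did not reach the size of 0.25 used for counting. Sufu (ENSMUSG00000025231; chromosome 19, 46396896 to 46488804, plus strand) was at 24.0 and 23.5 CPM, a log2 ratio of -0.03 (-0.11 to 0.05). Gli3 (ENSMUSG00000021318; chromosome 13, 15463235 to 15730026, plus strand), which acts mainly as a repressor, was at 25.1 and 25.0 CPM, a log2 ratio of -0.003 (-0.08 to 0.08). The intervals of Sufu and Gli3 overlapped between the libraries. Near-empty barcodes held Smo at 40.2 and 44.9 CPM, Sufu at 20.5 and 16.5 CPM and Gli3 at 16.2 and 13.8 CPM, all below the cells. No interval was set on these levels. That of Sufu rests on 81 and 42 UMIs, and in the library labelled wild type Sufu is not clearly above free RNA. GENCODE places another gene on the same strand within Ptch1 (A930032L01Rik), Smo (Gm13717) and Gli3 (Gm48343), and how shared reads were assigned is not given in the sources used here.

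The other readouts were close to the detection limit. Gli1 (ENSMUSG00000025407; chromosome 10, 127329882 to 127341974, minus strand), a target gene and activator, had 168 and 142 UMIs, levels of 1.73 CPM (1.48 to 2.01) and 1.45 CPM (1.22 to 1.71) in the wild type-labelled and double knockout-labelled cells. Its log2 ratio was -0.25 (-0.58 to 0.08), so no difference was detectable at this depth. Near-empty barcodes of the library labelled wild type held Gli1 at 1.77 CPM on 7 UMIs, Boc at 1.26 CPM on 5 and Hhip at 0.505 CPM on 2, not below the cells, so in that library these levels cannot be told from free RNA. In the library labelled double knockout the near-empty levels were below the cells, at 0.393 CPM on 1 UMI for Gli1, 0.787 CPM on 2 for Boc and 0 for Hhip. So few near-empty UMIs cannot set these genes apart from free RNA in that library either. Gli1 overlaps Arhgap9 on the opposite strand, which had 120 and 132 UMIs, and the use of strand in the counting is not given in the sources used here. Hhip (ENSMUSG00000064325; chromosome 8, 79965851 to 80058006, minus strand), the decoy receptor and a target gene, had 28 and 34 UMIs, or 0.288 CPM (0.192 to 0.417) and 0.348 CPM (0.241 to 0.487). Boc (ENSMUSG00000022687; chromosome 16, 44485049 to 44558897, minus strand), the co-receptor, had 83 and 88 UMIs, or 0.854 CPM (0.680 to 1.06) and 0.901 CPM (0.723 to 1.11). For Hhip and Boc the intervals overlapped, and no cell held more than 3 UMIs of either.

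**Figure D1:**
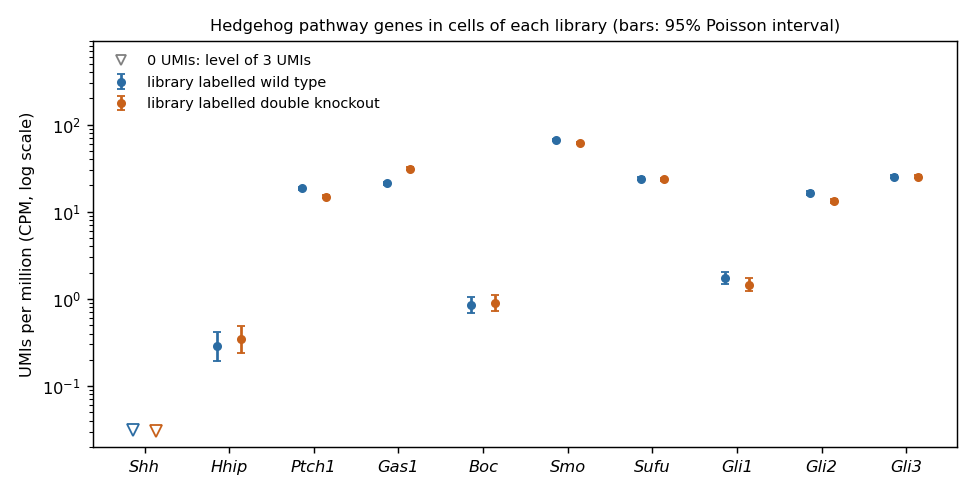
Level of each gene in CPM (log axis) in the cells of the 2 libraries, with 95% Poisson intervals. Open triangles place Shh, at 0 UMIs, at the level of 3 UMIs. Gas1 is higher and Ptch1 and Gli2 are lower in the library labelled double knockout.

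Counted at a log2 size of 0.25, 1 of the 6 genes (Gas1) was higher and 2 (Ptch1 and Gli2) were lower in double knockout-labelled cells. Over all 7607 genes at the same minimum, 3.13% were higher and 4.67% were lower. The median log2 ratio of the 6 genes was -0.07, against -0.02 over all genes. With the cells of both libraries weighted to the same shares of the 8 classes described below, Ptch1 was at -0.25 and just under the size counted. Without cells low in chromosome 6 or 11 transcripts it was at -0.21. Cells low in chromosome 11 were 17.7% of the library labelled wild type and 5.82% of the other, and cells low in chromosome 6 were 21.1% and 18.2%. Gli2 and Gas1 were past the size in both of these settings, at -0.32 and 0.45 with equal class shares and at -0.32 and 0.59 without the low cells.

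A wider list of 55 pathway genes had 25 at the minimum level, of which 1 was higher and 3 were lower, with a median of -0.06. Over all genes 3.13% were higher and 4.67% lower, with a median of -0.02. The only gene counted besides Gas1, Ptch1 and Gli2 was Mycn, a growth gene and Hedgehog target in several tissues, at 28.4 CPM in the first and 16.4 CPM in the second library, with a log2 ratio of -0.80 (-0.89 to -0.71). None of the 4 genes among Smo and its membrane partners, and none of the 4 ciliary brakes of the pathway, reached the size. Among 12 Gli proteins and their regulators Gli2 alone did. With such low shares over all genes, these small counts say nothing particular about these parts of the pathway. No ligand and no gene of ligand processing and release reached the minimum level.

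Cells were then divided by whether they held a UMI of T, Eomes or Irx3. T (Brachyury) and Eomes are T-box factors of the primitive streak, where cells leave the epiblast, and Irx3 is a homeobox factor of the anterior and neural epiblast. T was found in 2267 of 8707 cells and 3100 of 10587, Eomes in 3780 and 6547, and Irx3 in 1346 and 657, in the library labelled wild type and the library labelled double knockout. Positive cells were deeper: the medians were 11773 against 10129 UMIs for T and 9771 against 8251, and 11546 against 9786 and 9179 against 7839 for Eomes. T positive cells were 26.0% and 29.3% of all, Eomes positive cells 43.4% and 61.8% and Irx3 positive cells 15.5% and 6.21%. With every cell thinned to 4000 UMIs these shares were 12.3% and 16.1%, 24.4% and 44.0%, and 6.68% and 3.39%. Near-empty barcodes held T at 25.3 and 26.8 CPM against 38.8 and 50.7 CPM in cells, and Eomes at 49.5 and 101.1 CPM against 91.2 and 185.6 CPM, so some T and Eomes calls from a single UMI may be free RNA as well. The Irx3 level was higher in near-empty barcodes (27.0 and 10.6 CPM) than in cells (19.8 and 8.17 CPM), so Irx3 calls from a single UMI cannot be told apart from free RNA. The groups overlap, since 1320 and 2367 cells held T and Eomes without Irx3, and the comparisons are not independent of each other.

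Gas1 was higher in the streak-marked cells of both libraries. Among wild type-labelled cells it was at 26.2 CPM in T positive cells and 19.0 CPM in T negative cells, a log2 ratio of 0.47 (0.33 to 0.60). Among double knockout-labelled cells it was at 40.6 and 26.6 CPM, a log2 ratio of 0.61 (0.51 to 0.71). For Eomes the levels were 25.1 and 17.4 CPM, a log2 ratio of 0.52 (0.40 to 0.65), and then 36.6 and 20.6 CPM, a log2 ratio of 0.83 (0.70 to 0.95). In each of these 4 comparisons the intervals of positive and negative cells were apart. In Irx3 positive cells Gas1 was at 21.4 CPM against 21.1 in the library labelled wild type, a log2 ratio of 0.03 (-0.14 to 0.19). The double knockout-labelled cells had it at 26.2 against 31.7 CPM, a log2 ratio of -0.27 (-0.50 to -0.05), and at -0.67 (-1.42 to -0.08) with at least 2 Irx3 UMIs for a positive cell.

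Gas1 was the only one of the 6 genes past 0.25 in the same direction in both libraries, and it was so for T and for Eomes. Over all 7476 genes at the minimum in both libraries, 1.02% were higher and 0.976% lower in T positive cells, and 1.55% were higher and 1.61% lower in Eomes positive cells. The median log2 ratio of the 6 genes was 0.01 and 0.001 for T against 0.01 in both libraries over all genes, and -0.01 and 0.04 for Eomes against 0.01 and 0.02. For Irx3 it was 0.09 and 0.08, against 0.01 and 0.02 over all genes, the second of these medians running from -0.01 to 0.32 over the settings tried. No member was counted for Irx3, where 1.85% of all genes were higher and 1.47% lower. With at least 2 UMIs for a positive cell the log2 ratios of Gas1 were 0.77 and 0.80 for T and 0.68 and 0.96 for Eomes. The T and Eomes calls of Gas1 stood in cells of 8000 to 16000 UMIs and when positive cells were called after thinning every cell to 4000 UMIs, which left out 258 and 358 shallower cells.

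Ptch1 was lower in Eomes positive cells of 1 library and higher in Irx3 positive cells of the other, judged by intervals clear of 0 over all cells kept. Wild type-labelled cells had it at 16.3 CPM in Eomes positive and 20.6 CPM in Eomes negative cells, a log2 ratio of -0.34 (-0.47 to -0.20). Double knockout-labelled cells had it at 14.4 and 16.0 CPM, a log2 ratio of -0.16 (-0.31 to 0.00), which did not reach the size counted. With a minimum of 5000 UMIs per cell this ratio was -0.19 (-0.35 to -0.03), clear of 0 but still under the size. In Irx3 positive cells Ptch1 was at 19.99 against 18.2 CPM, a log2 ratio of 0.14 (-0.04 to 0.31), and at 18.8 against 14.7 CPM, a log2 ratio of 0.36 (0.08 to 0.62). Between T positive and negative cells the log2 ratios of Ptch1 were -0.10 (-0.25 to 0.05) and -0.03 (-0.19 to 0.13).

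Smo was a little higher in Irx3 positive cells of both libraries, at 72.1 against 64.9 CPM and at 69.1 against 60.4 CPM, with log2 ratios of 0.15 (0.06 to 0.24) and 0.20 (0.05 to 0.33). With at least 2 Irx3 UMIs for a positive cell the second value was 0.52 (0.19 to 0.81). Between T or Eomes positive and negative cells the log2 ratios of Smo lay from -0.02 to 0.03, with all 4 intervals across 0. Gli2 was at 19.6 against 15.9 CPM in Irx3 positive cells of the library labelled wild type, a log2 ratio of 0.31 (0.13 to 0.48). Double knockout-labelled cells had Gli2 at 11.5 against 13.3 CPM, a log2 ratio of -0.20 (-0.56 to 0.13), on only 76 UMIs in the positive cells. The difference between the libraries in this ratio was not tested. Gli2 was at log2 ratios of -0.06 (-0.22 to 0.09) and -0.20 (-0.37 to -0.02) for T. Sufu and Gli3 had log2 ratios from -0.15 to 0.17 over the 3 markers in both libraries. Clear of 0 among these were Sufu at 0.13 (0.004 to 0.25) and Gli3 at -0.15 (-0.28 to -0.03), both for T in double knockout-labelled cells. With at least 2 Irx3 UMIs Sufu was at 0.29 (0.02 to 0.54) in wild type-labelled cells.

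The genes under the minimum level had few UMIs in the marked cells. Gli1 had 58 and 40 UMIs in T positive cells, with log2 ratios of 0.32 (-0.17 to 0.78) and -0.33 (-0.91 to 0.20). Between Eomes positive and negative cells it was at 1.44 against 2.00 CPM, a log2 ratio of -0.47 (-0.94 to -0.02), and at 1.58 against 1.20 CPM, a log2 ratio of 0.39 (-0.14 to 0.97). The first of these was 0.00 (-0.55 to 0.50) with positive cells called after thinning. Boc had 23 and 11 UMIs in Irx3 positive cells, where it was at 1.40 against 0.744 CPM and at 1.66 against 0.846 CPM, with log2 ratios of 0.93 (0.15 to 1.63) and 1.03 (-0.08 to 1.90). Hhip had at most 18 UMIs in any positive group of either library, and no direction can be read from it.

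**Figure D2:**
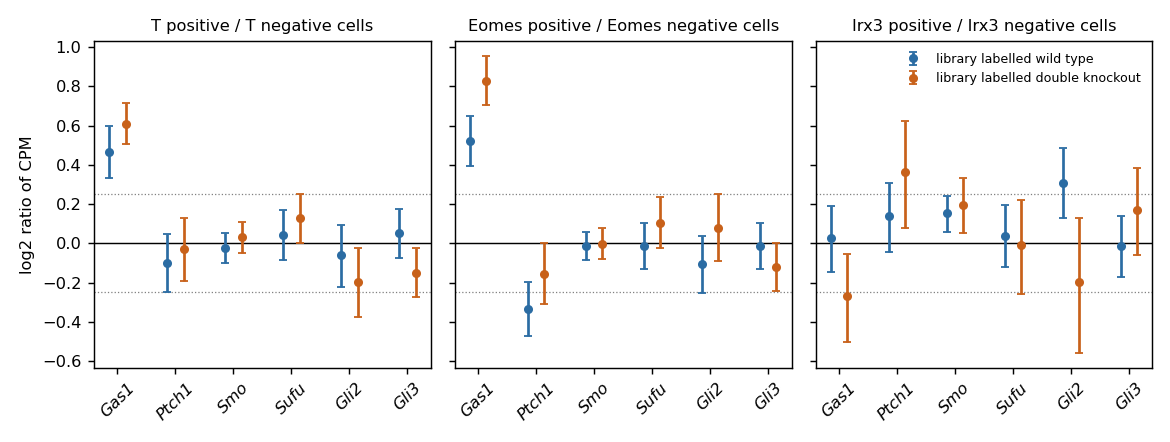
Log2 ratio of the level in marker positive over marker negative cells for the 6 genes at the minimum level, with 95% intervals, in each library. Dotted lines mark the size of 0.25 used for counting. Gas1 lies above the upper line in both libraries for T and for Eomes, and the other genes do not pass a line in both libraries for any marker.

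The 3 markers together gave 8 classes of cells. In cells with none of the markers the level of Gas1 was 15.7 CPM (14.3 to 17.1) for the library labelled wild type and 19.4 CPM (17.6 to 21.2) for the library labelled double knockout. With T alone it was at 19.5 (16.5 to 22.8) and 26.2 CPM (22.0 to 30.8), and with Eomes alone at 22.3 (20.4 to 24.3) and 31.7 CPM (29.9 to 33.6). With T and Eomes together it was at 30.0 (27.5 to 32.6) and 44.3 CPM (41.8 to 47.0). In each library this class lay above the other 3 classes without Irx3, with its interval apart from theirs.

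The library difference of Gas1 was present within classes. The library labelled double knockout was higher in 7 of 8 classes, with log2 ratios from 0.31 to 0.61. Of these, the interval held 0 for T with Irx3, at 0.57 (-0.64 to 1.61), and for all 3 markers together, at 0.40 (-0.26 to 1.02). The exception was Irx3 alone, at -0.13 (-0.60 to 0.31). Gli2 was lower in all 8 classes, from -0.95 (-1.65 to -0.33) in cells with Eomes and Irx3 to -0.05 (-0.24 to 0.15) in cells with Eomes alone. Its interval also held 0 for T with Irx3, at -0.47 (-2.61 to 0.97), and for all 3 markers, at -0.59 (-1.65 to 0.30). Ptch1 was lower in 5 of 8 classes, and its log2 ratios ran from -0.40 to 0.53. It was lower in every class without Irx3, at -0.34 (-0.52 to -0.15) in cells with none of the markers and -0.30 (-0.52 to -0.08) in cells with T and Eomes. With Eomes alone it was at -0.17 (-0.37 to 0.03) and with T alone at -0.36 (-0.80 to 0.05), intervals that held 0. The 3 classes where it was higher had 35 to 226 cells in the library labelled double knockout, and their intervals held 0. These class values were added after the data were seen.

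**Figure D3:**
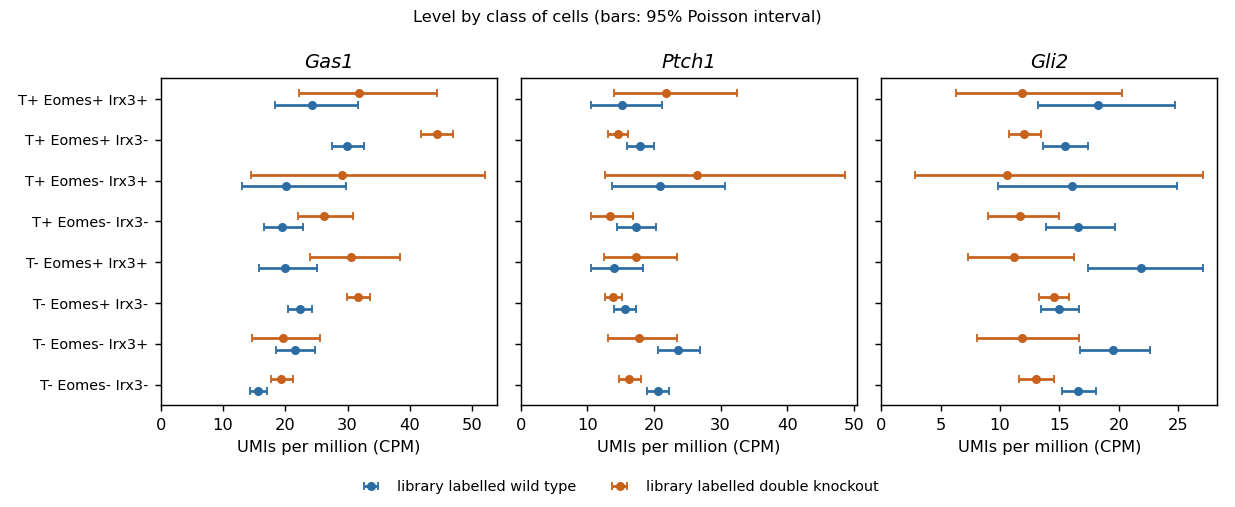
Level of Gas1, Ptch1 and Gli2 in CPM in the 8 classes of cells, with 95% Poisson intervals, in each library. Gas1 is highest in cells with T and Eomes but not Irx3 among the classes without Irx3, and the Gli2 points of the library labelled double knockout lie to the left in each class.

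Gas1 was also higher in cells with more T or Eomes UMIs, a division added after the data were seen. In wild type-labelled cells it was at 17.4, 20.7, 22.5 and 31.5 CPM in cells with 0, 1, 2 and 3 or more Eomes UMIs. In double knockout-labelled cells these were 20.6, 29.1, 34.4 and 42.7 CPM. For T the levels were 19.0, 22.2, 25.4 and 41.4 CPM, and 26.6, 37.0, 44.5 and 49.0 CPM. Median depth was higher along the same bins, from 9786 to 12664 UMIs for Eomes in the library labelled wild type and from 7839 to 10084 in the library labelled double knockout, and its part in the pattern along the bins was not tested. Within cells of 8000 to 16000 UMIs the Eomes log2 ratio of Gas1 was 0.50 and 0.89. Ptch1 in the same Eomes bins went from 20.6 to 16.4, 16.5 and 16.1 CPM in the library labelled wild type and from 16.0 to 14.6, 14.5 and 14.2 CPM in the library labelled double knockout.

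**Figure D4:**
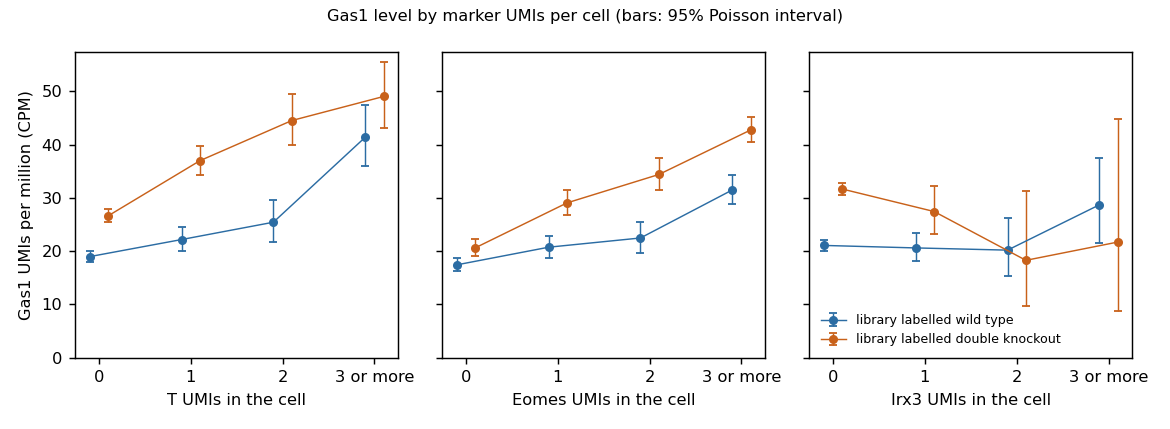
Gas1 level in CPM in cells with 0, 1, 2 and 3 or more UMIs of T, Eomes or Irx3, with 95% Poisson intervals, in each library. The level goes up with T and with Eomes in both libraries, and shows no such order with Irx3, where the last bin holds 135 and 29 cells.

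Marker lists moved with these divisions. The 8 node and notochord markers, among which Noto and Shh were at 0 in both libraries, summed to 10.97 against 7.58 CPM in T positive and negative cells of the library labelled wild type and to 22.6 against 12.3 CPM in the library labelled double knockout. The 7 definitive endoderm markers, with Cer1 at 0 in the library labelled wild type, summed to 591 against 343 CPM and 854 against 638 CPM in Eomes positive and negative cells. Since Foxa2 and Sox17 gave little of the definitive endoderm sum over all cells, that sum is no measure of endoderm cells. The part of both lists in the Gas1 level was not tested. The fibroblast markers summed to 16.9 against 17.2 CPM and 15.8 against 18.3 CPM in Eomes positive and negative cells. The part of fibroblast-like cells in the Gas1 level was not tested either. Without the cells holding 5 or more UMIs of the fibroblast list (3 in each library) or of the extraembryonic endoderm list (18 and 16), the library log2 ratios of Gas1, Ptch1 and Gli2 were 0.57, -0.31 and -0.33.

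Of the wider list, Mycn and Lrp2 were the other genes counted in the marked cells. Among its 25 genes at the minimum level, 1 was lower for T, 2 were lower for Eomes and 1 was higher for Irx3. Over all genes these shares were 0.976%, 1.61% and 1.85%. Mycn was lower in T positive cells, at 23.4 against 30.6 CPM and 11.9 against 18.6 CPM, and in Eomes positive cells, at 25.9 against 30.9 CPM and 15.1 against 18.9 CPM. It was higher in Irx3 positive cells, at 36.9 against 26.7 CPM and 23.6 against 15.8 CPM, with log2 ratios of 0.47 (0.34 to 0.60) and 0.58 (0.33 to 0.82). Lrp2, an endocytic receptor that binds Shh in the neural epithelium, was lower in Eomes positive cells, at 11.4 against 13.8 CPM and 9.93 against 13.1 CPM, with log2 ratios of -0.27 (-0.44 to -0.11) and -0.40 (-0.58 to -0.22). Foxa2, a target gene of the floor plate chosen after its values were seen, was under the minimum level. Foxa2 was at 3.33 against 1.30 CPM in Eomes positive and negative cells of the library labelled wild type and at 9.41 against 1.63 CPM in the library labelled double knockout. Other target genes under the minimum did not share this. In wild type-labelled cells Foxf1 was at a log2 ratio of -1.43 (-3.13 to -0.11) and Olig2 at -2.35 (-5.81 to -0.48), on few UMIs. Their intervals held 0 in double knockout-labelled cells. Those of Bcl2, Nkx2-2, Nkx6-1 and Foxc2 held 0 in both libraries. Foxa2 alone is thus no readout of the pathway here.

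Smo lies on chromosome 6, and a share of UMIs from that chromosome of 0.8 times the median or less was found in 1836 and 1925 cells. In these cells Smo was at 57.8 against 68.1 CPM in the others, a log2 ratio of -0.24 (-0.33 to -0.14), and at 47.0 against 63.9 CPM, a log2 ratio of -0.44 (-0.55 to -0.34). The direction is fixed in part by the division, since Smo is among the genes of the chromosome. Gas1, on chromosome 13, was higher in the same cells, at 28.4 against 19.4 CPM and 42.1 against 29.0 CPM, with log2 ratios of 0.55 (0.41 to 0.69) and 0.54 (0.41 to 0.66). Ptch1, also on chromosome 13, was at log2 ratios of 0.29 (0.13 to 0.45) and -0.20 (-0.41 to 0.01). Sufu, Gli2 and Gli3 had intervals that held 0 in both libraries. This division was added after the data were seen.

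For the 4 members with a mean of at least 20 CPM, the genes of most like pattern were sought over 12 points, the 6 classes with at least 100 cells in each library, among 2879 genes. The points share their library and its depth, and the values describe these points only. The named genes are the highest of 2879 candidates over 12 points, and that choice alone can give a high r. The nearest to Gas1 were Myo10, an unconventional myosin of filopodia, with r = 0.91, E2f4 with r = 0.90 and Mta2 with r = 0.88. The nearest to Smo were Taok1, Hdgfl3 and Mbtd1, with r of 0.95, 0.94 and 0.93. For Gli3 they were Mapre2, Snhg4 and Kifap3, with r of 0.83, 0.82 and 0.82. For Sufu they were Nob1, Dnajc10 and Cyb5b, each with r = 0.76.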

How the data were processed

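The authors deposited raw UMI counts per gene and barcode for 2 libraries, with 6794880 barcodes each. Per the labels' protocols, 10x Genomics single-cell 3′ libraries were analysed with Cell Ranger 8.0.1. The submitters' processing notes name STARsolo, STAR 2.7.9a, Seurat 5.1.0 and mm10, with no role or order. Each transcript is tagged once near its 3′ end, so counts are not divided by length.

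Barcodes with at least 2500 UMIs, 1000 genes and at most 10% mitochondrial UMIs were kept. Doublets were kept. As an alternative, the highest scores of Scrublet (scanpy 1.11.5) were left out at 0.8% per 1000 cells. Counts were summed over cells and scaled to CPM. Log2 ratios used a pseudocount of 0.5. Intervals are exact Poisson, or exact conditional for ratios, at 95%. A gene was counted from a log2 size of 0.25 at a mean of 10 CPM. Functions were tested on simulated data. TMM factors came from edgeR 4.0.16, and numpy 2.4.6 and scipy 1.17.1 were used. Of 32285 gene IDs, 32158 were in GENCODE M21.

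Named were all 10 members; of the wider list, up to 5 genes per direction between libraries and 3 per marker, by size; and 3 genes of like pattern per member. Members, lists and rules were chosen with earlier results of these data known. No sample was left out.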

Additional observations from a re-analysis of the deposited data

How the results depend on the processing

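With 1 library per genotype no replicate could be left out. No paired analysis was possible because there is 1 library per genotype. The settings varied were depth, mitochondrial share, doublets, TMM scaling, list cells, chromosome 6 and 11 cells, the minimum level, the size and the marker calls. Leaving out barcodes found in both libraries was added after seeing the data.

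The Gas1 library log2 ratio ran from 0.45 to 0.60, that of Gli2 from -0.33 to -0.29 and that of Ptch1 from -0.34 to -0.21. The number of members lower between the libraries was 1 with equal class shares, 1 without low chromosome 6 or 11 cells and 0 with a size of 0.5. With a size of 0.5 the number higher in T positive cells was 0. With positive cells called from 2 UMIs the number higher in Irx3 positive cells was 1, Gli2, at 0.45 and 0.27, where the latter rests on an interval from -0.59 to 0.93. The other counts of members were within 1.5 times the reported ones. In the same setting the median of the members in Irx3 positive double knockout-labelled cells was 0.32, against 0.08. The Gli2 value in the double knockout-labelled cells was -0.20 when called from 1 UMI. Under at least 1 setting, marker ratios of Gli1, Boc and Hhip larger than the size changed sign, all on few UMIs. Why these values moved was not tested, apart from the size of 0.5, which counts fewer genes by its construction. TMM scaling moved the median of all genes between the libraries from -0.02 to 0.01. Depth limited Gli1, Boc, Hhip and Shh, and the library labelled double knockout had 657 Irx3 positive cells.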
